A study of Mus musculus with 24 samples.

Results

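The sites occupied by the transcription factor Foxa2 in adult mouse hepatocytes were compared with those occupied in induced hepatocyte-like (iHep) cells, fibroblasts converted toward a liver fate. Both were mapped by chromatin immunoprecipitation and sequencing (ChIP-seq) with an antibody to Foxa2. The 4 libraries were chosen by their labelled antibody and cell type, out of 24 samples, 14 of which had a peak list. They held 13649 of the 26332 peaks of the series. The hepatocytes came from livers of adult C57BL/6 mice at 10 weeks of age, dissociated with collagenase. The iHep cells were embryonic fibroblasts of the same strain, from embryonic day 13.5, infected with Foxa2 and Hnf4alpha and labelled as line 4a2. Hepatocytes were not infected. The iHep libraries carried the titles EGS 1, EGS 2 and non-EGS 2, and the hepatocyte library was EGS 4; the labels do not spell out EGS.

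The hepatocyte side rested on 1 list of 244 peaks, so no spread between hepatocyte libraries could be given and no test between the cell types was possible. Run codes in the titles differed between the cell types: R176 for the hepatocytes, R164 for both EGS iHep libraries and R215 for the non-EGS library. Cell type and whatever the title code marks therefore cannot be told apart. The labels do not say whether the iHep libraries were separate inductions, or whether line 4a2 was 1 clone. In iHep cells the antibody could bind the introduced Foxa2 and any the cells made themselves, and these cannot be told apart. Markers of the cell types could not be examined in lists of peaks without a matching annotation.

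Foxa2 is a forkhead factor whose winged-helix domain binds DNA and can do so on nucleosomes, for which it is called a pioneer factor. It acts in endoderm before the liver forms and remains in the adult organ with its relatives Foxa1 and Foxa3. Hnf4alpha is a nuclear receptor at many of the same liver enhancers, and forced expression of a Foxa factor with Hnf4alpha is known to turn fibroblasts into cells with hepatocyte features.

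The lists differed in size and in the width of their peaks. EGS 1 held 957 peaks with a median width of 142 bp, and EGS 2 held 1040 with a median of 135.5 bp. The non-EGS list was far longer, with 11408 peaks and a median of 458 bp, and it covered 5473 kb, against 149 kb for EGS 1 and 152 kb for EGS 2. Hepatocyte peaks had a median width of 121.5 bp and covered 33.7 kb. Read depth was unknown, and a longer list need not come from a deeper library. Of the 73 hepatocyte peaks in 4 dense blocks of the mm9 genome, on chromosomes 9, 10, 11 and 17, few had a counterpart in the Foxa2 lists of line 4a2. Results over many peaks are given with and without these blocks except where only the peaks outside them are named. Outside Foxa2, the EGS 3 list of line 4a3 stood apart with 46 peaks, and the EGS 2 list of line 4a1 held 92 peaks in the same blocks.

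A hepatocyte peak was called found when it shared at least 1 bp with an iHep peak. Peaks were ranked within their own list by the score the authors gave them, the highest being rank 1. A rank percentile runs up to 100 for the highest peak. Scores were not compared between lists, because their scale is not given in the sources used here.

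Outside the blocks, the share of the 171 hepatocyte Foxa2 peaks found in iHep cells was close between the EGS lists and higher in the long non-EGS list. EGS 1 held 40 of them (23.4%; exact 95% Clopper-Pearson interval 17.3 to 30.5). EGS 2 held 42 (24.6%; 18.3 to 31.7), and the non-EGS list held 66 (38.6%; 31.3 to 46.3). All such intervals cover counting error over peaks only. With the blocks included, the counts became 41 of 244 (16.8%), 45 (18.4%) and 67 (27.5%), and all 3 lists together shared 22 (9.02%). At least 1 of the 3 lists held 85 of the 244 (34.8%; 28.9 to 41.2), or 80 of the 171 outside the blocks (46.8%; 39.1 to 54.6). Without the non-EGS list these shares fell to 22.5% and 29.8%. The 34.8% also became 15.5% when only the 200 highest peaks of each list were used, and 23.0% when every peak was reduced to its central 100 bp.

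The lists did not all hold the same hepatocyte peaks. Of the 80 peaks found outside the blocks, 22 were in all 3 lists (12.9% of the 171), and 29 were in the non-EGS list alone. Either EGS list held 51 (29.8%), and 31 were in both (18.1%), of which 9 were absent from the non-EGS list although that list was more than 10 times as long. Another 7 were shared by EGS 1 and the non-EGS list and 8 by EGS 2 and the non-EGS list, while 2 were in EGS 1 alone and 3 in EGS 2 alone. The remaining 91 were in none. With the blocks included, 30 were in the non-EGS list alone, 6 in EGS 2 alone, 3 in EGS 1 alone and 159 in none, and the other counts were the same.

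Length of the list bore on these counts. Among the 900 highest peaks of each iHep list outside the blocks, EGS 1 held 39 hepatocyte peaks, EGS 2 held 42 and the non-EGS list held 23. Among the 100 highest, the counts were 13, 10 and 6. From all peaks, the 900 highest held 39, 45 and 23, and the 100 highest again 13, 10 and 6. At equal numbers of peaks the non-EGS list thus held the fewest, and its lead over the EGS lists came from peaks below its 900 highest.

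Hepatocyte peaks of higher rank were more often found when all 244 were counted. Of the 61 highest, 31 were in at least 1 iHep list (50.8%). The next 61 gave 29 (47.5%), the next 20 (32.8%), and the 61 lowest only 5 (8.20%). Peaks of the 4 blocks were distributed unevenly over these groups, with 4, 8, 18 and 43 of each 61. The share found thus fell as the share of block peaks rose.

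Without the blocks the same order was seen, with a smaller fall from the highest to the lowest group. The 43 highest of the 171 peaks gave 24 found (55.8%; 39.9 to 70.9), followed by 21 of 43 (48.8%), 19 of 43 (44.2%) and 16 of the 42 lowest (38.1%; 23.6 to 54.4). The intervals of the highest and lowest groups overlapped. EGS 1 held 16, 9, 8 and 7 peaks of these groups, EGS 2 held 14, 13, 9 and 6, and the non-EGS list held 21, 18, 14 and 13. In each of the 3 lists the highest of these 4 groups was the best represented. Over 10 smaller groups the order was not regular. The 18 highest peaks gave 7 found in at least 1 list (38.9%), the next 17 gave 13 (76.5%) and the 17 lowest gave 4 (23.5%).

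**Figure D1:**
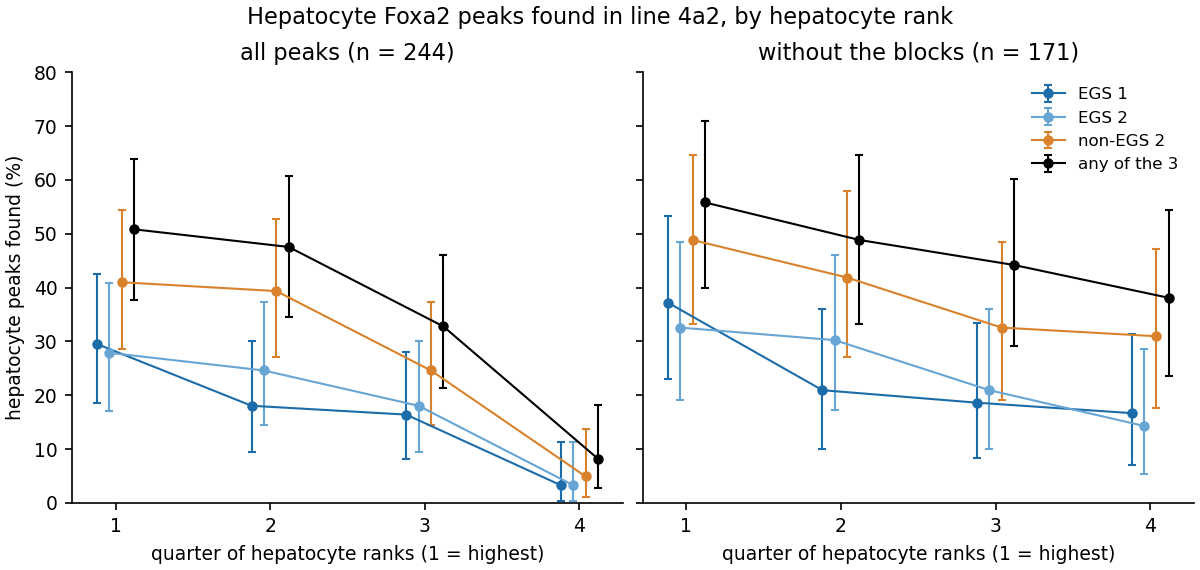
Percent of hepatocyte Foxa2 peaks found in at least 1 line 4a2 Foxa2 list, and in each list, for 4 groups of hepatocyte rank from the highest to the lowest, with all peaks and without the 4 blocks; bars are exact 95% Clopper-Pearson intervals. With all peaks the share in at least 1 list falls from 50.8% to 8.20%, and without the blocks from 55.8% to 38.1%.

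Splitting the ranked list in the middle gave the difference a single value. With all peaks, 60 of the upper 122 (49.2%; 40.0 to 58.4) and 25 of the lower 122 (20.5%; 13.7 to 28.7) were found, a difference of 28.7 percentage points. It was 17.8 points with hepatocyte peaks within 1 kb merged and 18.03 with the central 100 bp of every peak. Outside the blocks the counts were 45 of 86 (52.3%; 41.3 to 63.2) and 35 of 85 (41.2%; 30.6 to 52.4), a difference of 11.1 points whose intervals overlapped. Per iHep list, the upper group exceeded the lower by 13.9 points in EGS 1, 15.6 in EGS 2 and 25.4 in non-EGS 2 with all peaks (18.3 ± 6.21, SD, n = 3). Without the blocks the values were 11.4, 13.7 and 13.6 (12.9 ± 1.30, SD, n = 3). The 3 lists were set against the same hepatocyte peaks, so this SD leaves out any spread between hepatocyte preparations.

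Peaks held by more iHep lists had higher median hepatocyte scores. The 91 peaks found in none had a median hepatocyte score of 10.3 and a median rank percentile of 42.4 among the 171. The 34 in 1 list had a median percentile of 48.0, the 24 in 2 lists 60.1, and the 22 in all 3 lists 65.4 with a median score of 12.6. Among all 244 peaks the medians of percentile were 38.5 for the 159 in none, 58.8 for the 39 in 1 list, 69.6 for the 24 in 2 lists and 73.9 for the 22 in 3. The lowest score among those 22 was 8.41, and scores of all 244 ran from 5.001 to 26.9. Width differed little, with a median of 118 bp for the peaks in none and 135 bp for those in all 3.

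**Figure D2:**
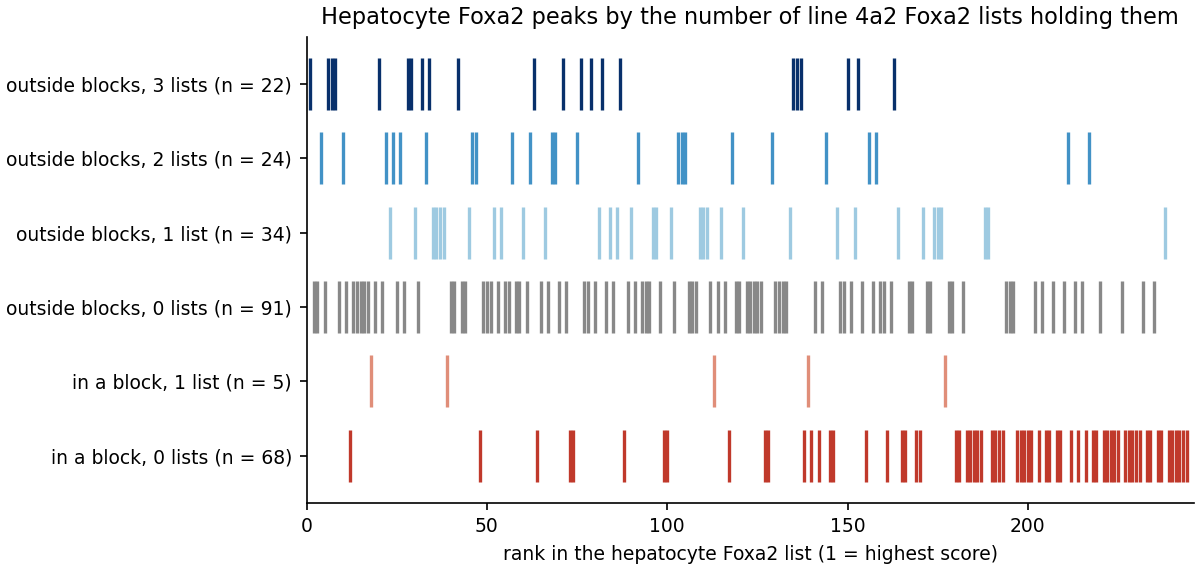
Each vertical mark is 1 hepatocyte Foxa2 peak placed by its rank in the hepatocyte list (1 is the highest score); the strips separate peaks by the number of line 4a2 Foxa2 lists that held them, inside and outside the blocks. The 22 peaks held by all 3 lists crowd toward the high ranks, the 91 held by none run along almost the whole axis, and most of the 73 block peaks lie at low ranks.

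A high rank in hepatocytes did not make a peak sure to be found. Of the 10 highest hepatocyte peaks, 6 were in at least 1 iHep list, 4 of them in all 3, and 4 were in none. Of the 20 highest, 12 were in none, 2 of these 20 lying in the blocks. Of the 50 highest, 27 were found and 23 were not.

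The highest hepatocyte peak, chr10:86308088-86308558 (mm9; 471 bp), was also the highest in EGS 1 and in EGS 2 and rank 4 of 11408 in the non-EGS list. Its authors' scores were 26.9 in hepatocytes, 65.3 in EGS 1, 58.0 in EGS 2 and 365 in non-EGS 2. It was rank 1 in all 3 Foxa1 lists of line 4a1 and in the Flag list of line 4a2 as well, and 7 of the 10 other lists held it. The Foxa2 site with the highest hepatocyte score was thus at or near the top in every Foxa2 list.

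The next hepatocyte peaks behaved differently. Rank 2, chr1:167390848-167391001 with a score of 26.2, was in none of the iHep Foxa2 lists, the nearest of their peaks lying 716 bp away, and none of the 10 other lists held it. Rank 3, chr11:38494741-38494870 with a score of 24.99, was also in none, and its nearest iHep Foxa2 peak was 718243 bp away. None of the 10 other lists held rank 3 either. These high-ranked peaks were thus seen in the hepatocyte Foxa2 list alone, with no counterpart in the hepatocyte Foxa1 or Foxa3 list or in any iHep list.

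Rank 4, chr18:34918779-34918890, was at rank 167 in EGS 1 and 7638 in the non-EGS list, and was absent from EGS 2. Rank 5, chr16:57391618-57391716, was in no Foxa2 list of line 4a2, with 7542 bp to the nearest peak. It was nonetheless present in 5 other lists, at rank 12 in EGS 1 of line 4a1, rank 2 in the Flag list of line 4a2 and rank 3 in the hepatocyte Foxa1 list. Absence from the Foxa2 lists thus did not mean absence from every library of line 4a2.

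Rank 6 was chr2:68634023-68634175, held by all 3 iHep lists at ranks 786, 173 and 8889 and by no list outside the Foxa2 libraries. Rank 7, chr7:148662330-148662509, stood high everywhere, at rank 48 in EGS 1, 10 in EGS 2 and 494 in non-EGS 2. Rank 8, chr9:53164876-53165045, was at ranks 651, 186 and 20. A site near the top in hepatocytes could thus be near the top or far down in an iHep list.

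Among the 22 peaks in all 3 iHep lists, those with the highest mean rank percentile over the 4 lists were the chromosome 10 site (99.9), the chromosome 7 site (96.9) and chr4:137423425-137423523 (92.4). The last was rank 29 in hepatocytes and ranks 143, 35 and 67 in EGS 1, EGS 2 and non-EGS 2. Next came chr8:96911655-96911778 at hepatocyte rank 34 and chr15:37065608-37065717 at rank 82. The chromosome 15 peak was rank 220 in EGS 1, rank 5 in EGS 2 and rank 102 in non-EGS 2. These last 2 depended on peak width: no iHep list held either when the central 100 bp of each peak was used instead of its full extent.

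Of the remaining 3 in that set, chr5:99713693-99713802 was rank 87 in hepatocytes and 89, 263 and 101 in the iHep lists. Of the chromosome 9 pair, chr9:77592766-77592910 was at hepatocyte rank 71 and iHep ranks 66, 361 and 1588. The other, chr9:25059794-25059906, was only rank 153 in hepatocytes and yet ranks 65 and 8 in EGS 1 and EGS 2. In EGS 2 it thus stood among the highest 10 peaks although it was in the lower part of the hepatocyte list.

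Besides ranks 2, 3 and 5, the highest hepatocyte peaks outside the blocks that no iHep Foxa2 list held were rank 9, chr6:55133012-55133157, and rank 11, chr4:105868396-105868546. Their nearest iHep Foxa2 peaks were 226133 bp and 4364 bp away, and none of the 10 other lists held either. Over all 91 such peaks the median distance to the nearest iHep Foxa2 peak was 64.5 kb, from 100 bp to 2474 kb. Of the 91, 4 lay within 1 kb of one and 13 within 10 kb.

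Seen from the iHep side, the peaks that held a hepatocyte peak tended to rank above the middle of their own lists. With all peaks counted, their median rank percentile was 73.2 in EGS 1 (middle 50% of peaks 30.4 to 93.6), 74.3 in EGS 2 (60.2 to 85.9) and 82.0 in non-EGS 2 (49.02 to 94.2). A list's own median percentile is 50 by construction. Outside the blocks, in EGS 1 the 96 highest peaks gave 13 with a hepatocyte peak (13.5%; 7.41 to 22.0) and the 95 lowest gave 5 (5.26%). The groups of 95 or 96 peaks between them gave 2.11% to 5.21%, so the EGS 1 share did not fall steadily with rank. In EGS 2 the counts were 10 of the 103 highest (9.71%; 4.75 to 17.1) and 0 of the 103 lowest, with an exact upper bound of 3.52%. In the non-EGS list they were 25 of 1141 (2.19%; 1.42 to 3.22) and 3 of 1140 (0.263%). With the blocks included, the EGS 1 counts were 13 of 96 and 6 of 95 (6.32%), the EGS 2 counts 10 of 104 (9.62%) and 0 of 104, and the non-EGS counts unaltered.

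Width moved with these values. iHep peaks that held a hepatocyte peak had a median width of 171 bp in EGS 1 against 142 bp for the others, 191 against 134 bp in EGS 2 and 548 against 458 bp in the non-EGS list. A wider peak has more bases to share, and the part of width in the higher ranks was not tested. As a share of each iHep list, peaks with a hepatocyte counterpart made up 4.28% of EGS 1, 4.33% of EGS 2 and 0.587% of the non-EGS list.

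**Figure D3:**
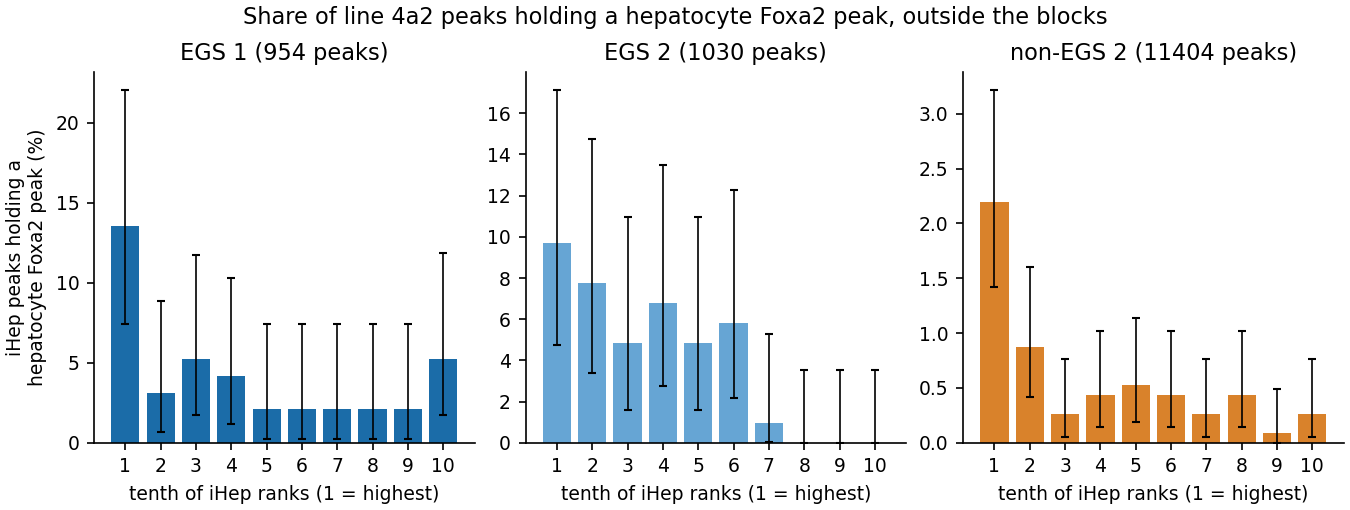
Percent of the peaks of each line 4a2 Foxa2 list, outside the blocks, that hold a hepatocyte Foxa2 peak, for 10 equal groups of iHep rank from the highest to the lowest; bars are exact 95% Clopper-Pearson intervals. The highest groups hold 13.5%, 9.71% and 2.19% in EGS 1, EGS 2 and non-EGS 2, and the lowest 5.26%, 0% and 0.263%. In EGS 1 the groups between hold 2.11% to 5.21%, with no steady fall.

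iHep sites that recurred between the iHep lists were more often hepatocyte sites. When the 3 lists were merged outside the blocks, 30 of the 10361 regions present in 1 list held a hepatocyte peak (0.290%). Of the 913 regions present in 2 lists, 24 did (2.63%; 1.69 to 3.89), and of the 391 present in all 3, 26 did (6.65%; 4.39 to 9.59). The intervals of the last 2 classes did not overlap. Counting the blocks too, the shares were 0.337%, 2.63% and 6.63%. Even so, most regions found in all 3 iHep lists had no peak in the short hepatocyte list. Every region in 2 or 3 lists includes a peak of an EGS list. Outside the blocks, 4.19% of EGS 1 peaks and 4.08% of EGS 2 peaks held a hepatocyte peak, against 0.579% of non-EGS peaks. Regions merged from several lists can also be wider. The parts of recurrence, EGS kind and width in this order were not tested.

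Within the shared sites, the hepatocyte and iHep ranks were weakly related at most. Outside the blocks, Spearman's rho between the hepatocyte rank and the iHep rank was 0.075 over 40 shared peaks in EGS 1, 0.267 over 42 in EGS 2 and -0.065 over 66 in the non-EGS list. Blocks included, it was 0.055 over 41, 0.277 over 45 and -0.048 over 67. EGS 2 thus showed a weak positive order and the other lists values near 0. These describe peaks of single libraries, which are not independent replicates.

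**Figure D4:**
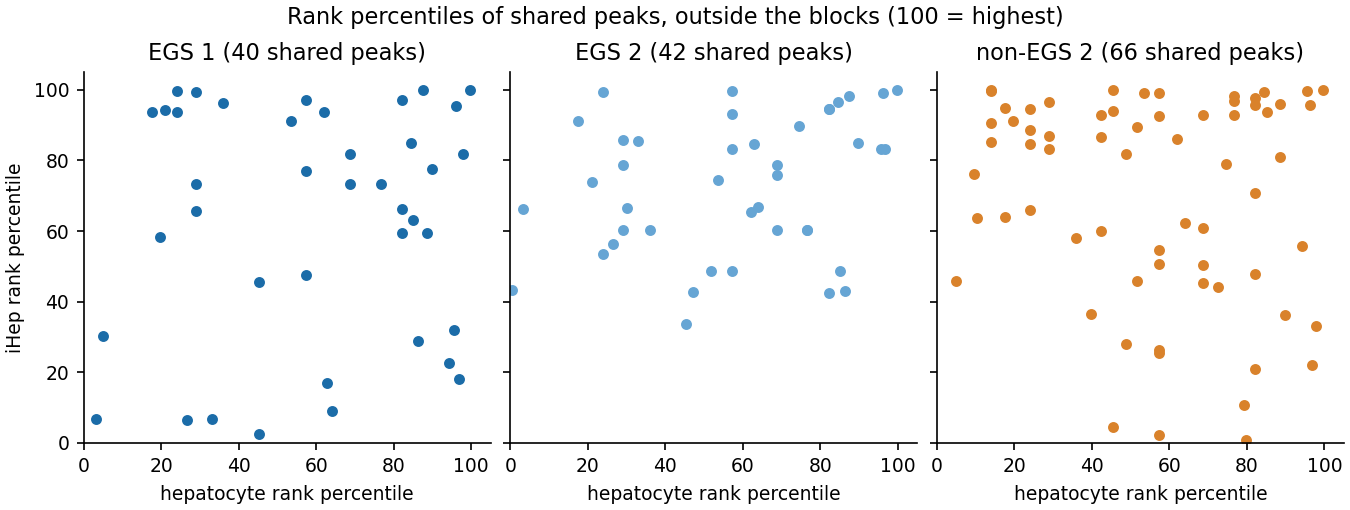
Rank percentile in the hepatocyte list (horizontal) against rank percentile in each line 4a2 Foxa2 list (vertical) for the hepatocyte peaks found outside the blocks, 100 being the highest peak. Points scatter over the plots, with Spearman's rho of 0.075, 0.267 and -0.065 in EGS 1, EGS 2 and non-EGS 2.

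The shared peaks lay close together in the EGS lists. Outside the blocks, midpoints of the hepatocyte and iHep peaks were a median of 25 bp apart in EGS 1 and 58 bp apart in EGS 2, with 36 of 40 (90%) and 32 of 42 (76.2%) within 100 bp. In the non-EGS list the median was 98.5 bp and 34 of 66 (51.5%) were within 100 bp. There the hepatocyte peak lay wholly inside the wider iHep peak in 55 of 66 cases (83.3%), against 11 of 40 and 9 of 42 in EGS 1 and EGS 2. The median distances over all shared peaks were 26, 58.5 and 99 bp.

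Many of the highest iHep peaks were not hepatocyte peaks. The highest peaks of EGS 1 without one were chr6:97161914-97162124 (rank 3), chr2:116798546-116798688 (rank 5) and chr8:111240419-111240576 (rank 6, and rank 14 in EGS 2). In EGS 2 they were chr6:134780107-134780280 (rank 2), chr1:36568473-36568638 (rank 3) and chr2:152223799-152223944 (rank 4). The first 3 places of the non-EGS list were taken by chr4:3734058-3734909, chr9:61656156-61657075 and chr9:61751800-61752570, with authors' scores of 502, 383 and 382. The chromosome 4 site was also in EGS 1 at rank 200 and in EGS 2 at rank 102.

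Peaks inside the 4 blocks had other partners than those outside. Only 5 of the 73 hepatocyte peaks there were found in line 4a2 with the Foxa2 antibody (6.85%; 2.26 to 15.3): 1 in EGS 1 (1.37%), 3 in EGS 2 (4.11%) and 1 in non-EGS 2 (1.37%). Yet 44 (60.3%) overlapped the hepatocyte Foxa1 list and 58 (79.5%) the hepatocyte Foxa3 list, both also titled EGS 4. EGS 2 of line 4a1 overlapped 38 (52.1%). Outside the blocks, the hepatocyte Foxa1 list held only 5 of 171 (2.92%) and the Foxa3 list 14 (8.19%). EGS 2 of line 4a1 held 19 of 171 there (11.1%). Inside the blocks, EGS 1 of line 4a1 held 1 of the 73 (1.37%) and its non-EGS list 0. Line 4a3 held 2 (2.74%) in EGS 1, 0 in EGS 3 and 0 in non-EGS 2. The low share inside the blocks was thus not particular to line 4a2, and EGS 2 of line 4a1 was the exception among the iHep Foxa lists. With that list included, the 9 iHep Foxa lists together held 128 of the 244 (52.5%), and 88 of the 171 outside the blocks (51.5%).

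The blocks also differed from each other. The chromosome 9 block, 3000010 to 3038304, held 34 hepatocyte peaks with scores of 5.001 to 9.14 and no rank above 140, and none was found in line 4a2. All 34 were in the hepatocyte Foxa1 list and in EGS 2 of line 4a1. The chromosome 10 block, 7229710 to 7237012, held 11 peaks, the best at rank 39, and 1 was found, at rank 943 of EGS 1.

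The chromosome 11 block, 3041272 to 3100001, held 23 peaks, the best at rank 12, none of them found and none in the hepatocyte Foxa1 list, although 18 were in the Foxa3 list. The chromosome 17 block, 39980018 to 39985706, held 5 peaks, of which 4 were found, 3 in EGS 2 and 1 in non-EGS 2. Its best peak, chr17:39980018-39980138, was rank 18 in hepatocytes, rank 268 in EGS 2 and rank 1 in the Flag list of line 4a3. This block was thus the exception among the 4.

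The peaks that iHep cells held without the non-EGS list differed in company from those it held; this split was chosen after the values were seen. It was made outside the blocks only. There, none of the 66 hepatocyte peaks in the non-EGS list was in the hepatocyte Foxa3 list (interval up to 5.44%). Of the 14 held by EGS lists only, 9 were (64.3%; 35.1 to 87.2), and of the 91 held by none, 5 were (5.49%). EGS 1 of line 4a1 held 34 of the 66 and 12 of the 14, and the non-EGS list of line 4a1 held 27 of the 66 and 0 of the 14.

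Among the 31 peaks common to EGS 1 and EGS 2, the 22 also in the non-EGS list had median percentiles of 81.4 in EGS 1 and 83.2 in EGS 2. The other 9 had medians of 17.1 and 66.8. Their nearest non-EGS peak was at least 6060 bp away. At chr5:137943221-137943319, rank 24 in hepatocytes, the ranks were 2 in EGS 1 and 18 in EGS 2, and the nearest non-EGS peak was 112955 bp away. EGS kind, title code and peak width changed together between these lists and cannot be told apart.

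The other hepatocyte Foxa lists overlapped the iHep Foxa2 lists less. Outside the blocks, 5 of 79 hepatocyte Foxa1 peaks (6.33%; 6.02% with the blocks) and 31 of 985 hepatocyte Foxa3 peaks (3.15%; 2.15 to 4.44; 3.67% with the blocks) were in at least 1 Foxa2 list of line 4a2, against 46.8% of the Foxa2 peaks. These 3 lists were of 1 library each, and their numbers of peaks differed widely.

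To ask whether line 4a2 held more hepatocyte Foxa2 sites than the lines made with the other Foxa factors, each of the 9 iHep Foxa libraries was set against the 244 peaks. In line 4a2 the share found was 20.9% ± 5.74 (SD, n = 3), from the 16.8%, 18.4% and 27.5% above. Line 4a1, infected with Foxa1 and Hnf4alpha and probed for Foxa1, gave 20.5%, 23.4% and 12.3% (18.7% ± 5.74). Line 4a3, infected with Foxa3 and Hnf4alpha and probed for Foxa3, gave 8.61%, 0% and 10.2% (6.28% ± 5.50). The 0% belongs to the list of 46 peaks, where 0 of 244 has an exact upper bound of 1.5%.

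Lines 4a1 and 4a2 overlapped in these shares over all peaks, while all 3 libraries of line 4a3 lay below every library of both. Line 4a2 exceeded the other 6 libraries (12.5% ± 8.47) by 8.40 percentage points, with a p of 0.19 in an exact two-sided permutation test over the 84 assignments of 3 libraries, the smallest possible value being 0.0119. The difference was 5.12 points without the non-EGS library of line 4a2 (exact permutation p = 0.464) and 2.75 points with the 200 highest peaks of each list (exact permutation p = 0.393). A p that misses 0.05 does not show that the lines were alike. Line, introduced factor and antibody changed together and cannot be told apart.

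Outside the blocks the shares were 23.4%, 24.6% and 38.6% in line 4a2 (28.8% ± 8.46). In line 4a1 they were 28.7%, 11.1% and 17.5% (19.1% ± 8.88), and in line 4a3 11.1%, 0% and 14.6% (8.58% ± 7.63). Here lines 4a1 and 4a3 overlapped, the 14.6% of line 4a3 lying above the 11.1% of EGS 2 in line 4a1. Every library of line 4a3 remained below those of line 4a2. The difference between line 4a2 and the other 6 was 15.0 points (exact permutation p = 0.0714). Without EGS 1 of line 4a1 it was 17.97 points with an exact permutation p of 0.0179, the smallest that the remaining 56 assignments allow, so that 1 library decided the side of the threshold. Title code R164, whose meaning the labels do not give, was the only one shared by Foxa libraries of lines 4a1 and 4a2. Under this code the 1 Foxa1 library held 49 hepatocyte peaks and the Foxa2 libraries 40 and 42. All of these are EGS libraries, and the non-EGS library of line 4a2, with the highest share, is not among them. With 1 Foxa1 library these counts cannot settle whether the lines differed.

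**Figure D5:**
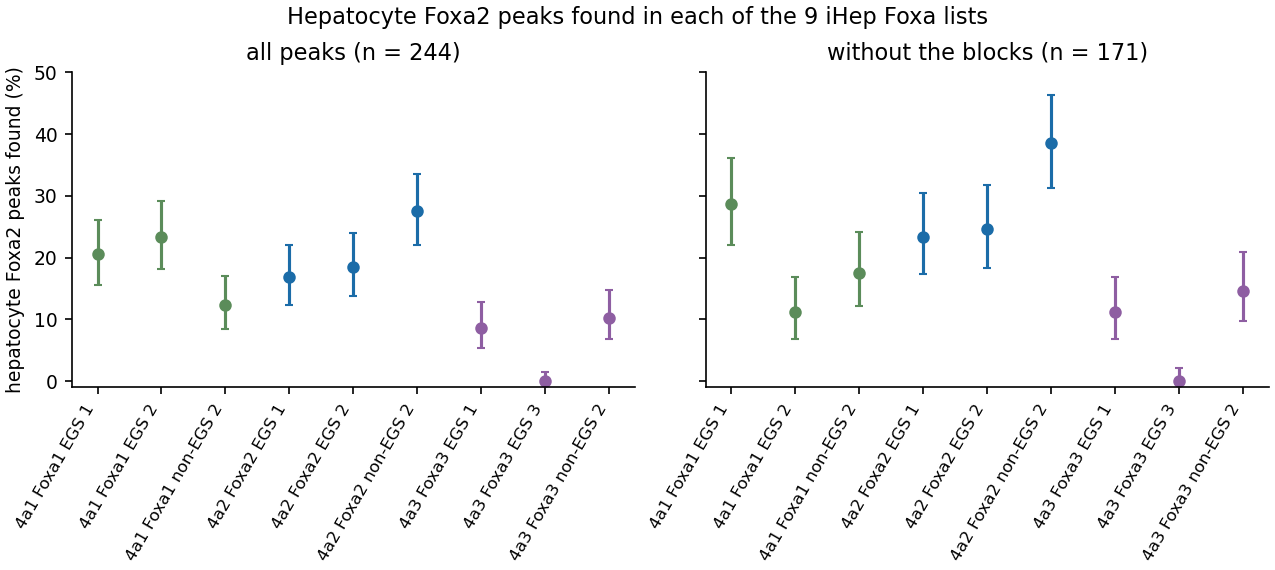
Percent of hepatocyte Foxa2 peaks found in each of the 9 iHep Foxa libraries of lines 4a1, 4a2 and 4a3, with all 244 peaks and with the 171 outside the blocks; each point is 1 library and its bar the exact 95% Clopper-Pearson interval. The non-EGS library of line 4a2 is the highest in both panels (27.5% and 38.6%), but EGS 1 of line 4a1 lies above both EGS libraries of line 4a2.

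The sites found in line 4a2 were mostly also found in line 4a1, and less often in line 4a3. Of the 80 hepatocyte peaks found outside the blocks, 52 (65.0%) were also in line 4a1 and 30 (37.5%) in line 4a3, and 25 (31.3%) were in neither. Of the 22 in all 3 Foxa2 lists, 20 were in line 4a1 and 16 in line 4a3. Of the 91 not found, 7 were in line 4a1 and 2 in line 4a3, and 83 were in neither. With the blocks included, 56 of the 85 found (65.9%) and 42 of the 159 not found were in line 4a1.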

How the data were processed

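ChIP-seq peak lists of the 4 Foxa2 libraries were analysed, with 10 lists of the same series beside them. The submitters' processing notes name bedtools 2.16.2, MACS2 2.1.0, BWA 0.6.2 and the build mm9. They give no role or setting for these, and say nothing of how input libraries were used. Each deposited list gives chromosome, start, end, peak name and a score assigned by the authors. No source used here states the scale of that score, so it served only to rank peaks within a list. Ties in score were ordered by chromosome and start. Starts were written 1-based.

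Overlap, ranks, shares and distances were computed with pandas 2.3.3, numpy 2.4.6 and scipy 1.17.1 under Python 3.11.15, and the overlap and rank routines were tested on simulated data. Shares have exact 95% Clopper-Pearson intervals, which cover counting error only and are too narrow where neighbouring peaks are not independent. The 9 iHep libraries were compared by an exact two-sided permutation test. Without read counts in the files, the depth of each library is unknown. Nothing in the labels says that the cultures were separate inductions, so p-values measure only the spread between these libraries, which may be technical.

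Replicate numbers recur between lines 4a1 and 4a2. In an alternative, libraries were treated as paired by title. Deviations of the found peaks from the line means correlated at 0.18, 0.14 and 0.41 over 171 peaks for EGS 1, EGS 2 and non-EGS 2. Between EGS libraries of different number the correlations were 0.16 and 0.13, close to those between EGS libraries of the same number. The non-EGS value had no non-EGS pair of different number beside it. These correlations therefore do not show that the libraries were paired by number.

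Named regions were, outside the blocks, the 8 highest hepatocyte peaks, the 8 peaks in all 3 iHep lists with the highest mean percentile, the 5 highest in none, the 3 highest of each iHep list without a hepatocyte peak, and the highest peak of each block. Block bounds are the outermost Foxa peaks in each block. The members, blocks and lists were chosen with earlier results of these data known. The annotation at hand was of another build than mm9, so no gene, marker or sequence was attached to a peak; these were not analysed here.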

Additional observations from a re-analysis of the deposited data

Results flagged for a closer look

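A list used above only at single named peaks, made with a Flag antibody in line 4a3 (EGS 2, 883 peaks), also held hepatocyte Foxa2 peaks. It overlapped 38 of the 244 (15.6%; exact 95% Clopper-Pearson interval 11.3 to 20.7) and 24 of the 171 outside the blocks (14.0%; 9.20 to 20.2). Outside the blocks, 22 of these 24 were among the 80 peaks found in line 4a2 and 2 among the 91 not found, and 11 of the 22 peaks held by all 3 Foxa2 lists were in it. The Flag list of line 4a2, with 21 peaks, held 3 of the 244. The labels name no control antibody, so no background level could be set beside these counts.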

How the results depend on the processing

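The share of hepatocyte Foxa2 peaks found in line 4a2 (34.8%) rose to 46.8% without the blocks and 41.6% with hepatocyte peaks within 1 kb merged. It was 15.5% with the 200 highest of each list, 23.0% with the central 100 bp of every peak and 25.8% with the iHep lists cut to the length of the shortest. Leaving out 1 iHep Foxa2 library gave 22.5% to 33.6%, and 29.8% to 45.6% without the blocks. The non-EGS library set the low end: without it the share was 22.5%. The difference between upper and lower hepatocyte ranks (28.7 points) was 11.1 without the blocks, 17.8 with merged peaks, 18.03 with the central 100 bp and 42.6 between the 61 highest and 61 lowest. With 1 library left out it was 20.5 to 28.7, or 11.2 to 14.7 without the blocks. It stayed positive in each of these.

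The difference between line 4a2 and the other lines (8.40 points) ran from 5.12 to 10.6 with 1 library left out (exact permutation p 0.107 to 0.464), and from 10.1 to 17.97 without the blocks (p 0.0179 to 0.25). With the 200 highest peaks of each list it was 2.75 points (exact permutation p = 0.393). With the replicate block, pairing libraries by title, the exact permutation p was 0.222 with all peaks and 0.111 without the blocks. The smallest p that this pairing allows is 0.0556, which lies above the threshold for a call. The paired test could therefore not have given a call, and no conclusion is drawn from it. The central 100 bp, the cut to equal length, the pairing without the blocks and the libraries left out together with the blocks were chosen after seeing the data. Short lists of unknown depth limit what can be called absent: a peak that was not found may lie below a list's threshold.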
